A study of Mus musculus with 3 samples.

Results

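The heat shock proteins and chaperones described here are 44 genes taken by symbol from the 24421 gene symbols measured in each library: 6 of the Hsp70 family, 3 of the Hsp110 family, both cytosolic Hsp90 genes, Hspb1 and Hspb11, the heat shock factors Hsf1 and Hsf2, 8 DnaJ cochaperones, 3 BAG cochaperones, 5 Hsp90 cochaperones, the 8 subunits of the chaperonin TRiC and 5 mitochondrial chaperones. RNA was sequenced from granulocyte progenitors, which are marrow cells committed to the granulocyte lineage, sorted by flow cytometry from the marrow of females. The 3 libraries, 1 per group, came from IRF8-deficient mice on C57BL/6 (H-2b), from F1 semi-syngeneic mice (H-2b/d) bearing 4T1 tumors (4T1-TB), and from F1 mice of that cross without tumors (NTB). IRF8 is a transcription factor that favors monocyte over granulocyte development, and 4T1 is a mouse mammary carcinoma line. Strain and genotype cannot be told apart in any comparison with the IRF8-deficient library. The sources used here do not give the age or number of mice behind each library. The study's title places the question at the granulocyte progenitor stage, and the design sets the IRF8-deficient and 4T1-TB libraries each against NTB.

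Chaperones bind unfolded or partly folded proteins and release them in cycles of ATP use. Hsp70 proteins take up clients handed over by DnaJ proteins, Hsp110 and BAG proteins help them release nucleotide, Hsp90 and its cochaperones finish the folding of kinases and steroid receptors, and TRiC folds actin and tubulin inside a double ring. Under heat or proteotoxic stress the factor HSF1 binds heat shock elements, alternating repeats of GAA and TTC, and raises the inducible genes of the system, of which Hspa1a and Hspa1b are the classical examples. Granulocyte progenitors divide and make large amounts of granule protein, and so depend on protein folding in the cytosol, the endoplasmic reticulum and mitochondria. The membership is wider than the cytosol: the products of Hspa9, Hspd1, Hspe1, Trap1 and Dnaja3 work in mitochondria, and Hspb11, despite its name, encodes a component of intraflagellar transport.

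The promoters of the 4 members with the largest differences from NTB among those with a window are shown, and each holds letters of a heat shock element. They are the RefSeq windows on GRCm38.p6 from 250 bases before to 50 after the annotated start, and capitals mark matches to GAANNTTC or TTCNNGAA, the motif of 2 units. Both strings are their own reverse complements, so a match holds on both strands. The windows are chr17:34972107-34972406 for Hspa1a, chr17:34959189-34959488 for Hspa1b and chr5:149636287-149636586 for Hsph1, all on the minus strand, and chr1:55087898-55088197 on the plus strand for Hspe1.
Hspa1a: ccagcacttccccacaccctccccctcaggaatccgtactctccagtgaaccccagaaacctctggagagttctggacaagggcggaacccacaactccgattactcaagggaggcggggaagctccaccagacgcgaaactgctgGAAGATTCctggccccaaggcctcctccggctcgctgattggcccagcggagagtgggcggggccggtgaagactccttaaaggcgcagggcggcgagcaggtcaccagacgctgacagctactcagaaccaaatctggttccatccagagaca
Hspa1b: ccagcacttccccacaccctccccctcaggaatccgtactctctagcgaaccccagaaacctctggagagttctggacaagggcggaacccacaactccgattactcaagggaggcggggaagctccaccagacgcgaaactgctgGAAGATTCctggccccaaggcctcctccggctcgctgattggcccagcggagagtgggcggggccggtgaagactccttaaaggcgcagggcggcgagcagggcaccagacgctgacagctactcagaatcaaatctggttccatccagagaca
Hsph1: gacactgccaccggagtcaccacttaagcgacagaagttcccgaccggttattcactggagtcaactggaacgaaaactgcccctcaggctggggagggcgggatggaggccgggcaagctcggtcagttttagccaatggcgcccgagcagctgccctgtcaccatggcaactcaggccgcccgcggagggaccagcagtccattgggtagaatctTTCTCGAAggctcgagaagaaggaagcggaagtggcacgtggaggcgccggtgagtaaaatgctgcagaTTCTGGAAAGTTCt
Hspe1: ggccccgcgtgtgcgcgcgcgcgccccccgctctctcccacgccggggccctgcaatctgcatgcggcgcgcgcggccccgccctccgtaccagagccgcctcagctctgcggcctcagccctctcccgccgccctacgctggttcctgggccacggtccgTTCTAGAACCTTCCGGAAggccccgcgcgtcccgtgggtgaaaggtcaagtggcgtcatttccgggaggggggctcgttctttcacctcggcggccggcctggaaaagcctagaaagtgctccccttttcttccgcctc
The Hspa1a and Hspa1b windows differed at 4 of 300 positions, and in both the match began 104 bases before the start. In Hsph1 1 match began 33 bases before the start and an overlapping pair began 36 and 41 bases after it. In Hspe1 matches began 89, 84 and 79 bases before the start and ran into each other. Such matches describe the letters of the windows and do not show that a factor binds there.

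RefSeq windows were found for 36 of the 44 members, 47 windows in all. The motif of 2 units was present in 17 of these 47 windows (36.2%), belonging to 15 members, and in 15.1% of all 32851 windows. The motif of 3 units, GAANNTTCNNGAA or its reverse complement TTCNNGAANNTTC, contains that of 2 units and was present in 7 of 47 windows (14.9%), against 0.603% of all windows. Its 5 members were Chordc1, Dnajb6, Hspd1, Hspe1 and Hsph1. Hspd1 and Hspe1 face away from each other and their windows overlap, so they share letters, as do windows of 1 gene with several starts. A CCAAT box (CCAAT or ATTGG) was present in 40.4% of the member windows and 37.4% of all windows. TATAAA or TTTATA was present in 1 member window, that of Stip1, which is 2.13%, against 13.6% of all windows.

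With 1 library per group no difference could be tested against a spread between animals, so no p-value is given. Levels are RPKM as the authors deposited them, reads scaled to gene length and library size. Differences are on the log2(RPKM + 1) scale, on which low genes appear closer than they are, and a difference of at least 1 in size, 2-fold on that scale, counts as a call. Calls were made over 10658 genes that reached an RPKM of 1 in any library, and 43 of the 44 members are among them. Intervals in brackets are 95% and cover counting error only. In sorted bulk cells, fewer cells expressing a gene and less RNA per cell cannot be told apart.

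The recovered reads summed to 35396965 in the IRF8-deficient library, 22945204 in 4T1-TB and 41544944 in NTB. Library sizes worked back from RPKM were 0.738, 0.968 and 1.08 times those sums in the same order, so scaling by summed reads gives lower values in the IRF8-deficient library. Irf8 had an RPKM of 13.7 in the IRF8-deficient library, 8.60 in 4T1-TB and 43.8 in NTB. Transcript was thus present in the IRF8-deficient library, from exons that a value per gene cannot tell. Mpo, which encodes myeloperoxidase of primary granules and is among the progenitor markers listed, had 4012 RPKM in the IRF8-deficient library, 6749 in 4T1-TB and 6811 in NTB. Of the 10 progenitor markers compared, 1 was called higher and 1 lower in the IRF8-deficient library than in NTB, and 0 higher and 1 lower in 4T1-TB than in NTB. Cd34, a marker of early progenitors, was the lower one in both, with 5.41 RPKM in the IRF8-deficient library, 8.73 in 4T1-TB and 36.9 in NTB. Cebpe, a factor of later granulocyte stages, was the higher one, with 255 RPKM in the IRF8-deficient library, 108 in 4T1-TB and 77.4 in NTB. Summed RPKM of 12 mature neutrophil markers was 134475 in the IRF8-deficient library, 13938 in 4T1-TB and 9942 in NTB. All 12 were called higher in the IRF8-deficient library than in NTB and 6 were called higher in 4T1-TB than in NTB. Of 9 monocyte and macrophage markers the sum was 108, 49.7 and 122 RPKM. All 8 of them that were compared lay below 0 in 4T1-TB against NTB, with 5 called lower. In the IRF8-deficient library against NTB 2 were called lower and 1 higher. Sums were low for B cell markers (11.0, 12.6 and 16.6), T cell markers (0.582, 0.474 and 0.443) and erythroid markers (0.0749, 0 and 0.519), the last with 7, 8 and 4 of 8 genes at 0. Basophil, mast cell and eosinophil markers summed to 11.8, 23.8 and 23.6 RPKM and megakaryocyte markers to 1.61, 0.708 and 0.940. The ribosomal RNA precursor Rn45s took 14.0% of the reads in the IRF8-deficient library, 6.45% in 4T1-TB and 1.83% in NTB, the reverse of the order of Hspa1a and Hspa1b below. The part of these markers and of Rn45s in the chaperone values below was not tested.

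The 44 chaperone genes together had a summed RPKM of 2849 in the IRF8-deficient library, 6353 in 4T1-TB and 5015 in NTB. The sum was thus 0.568 times NTB in the IRF8-deficient library and 1.27 times NTB in 4T1-TB. Hspa8, the constitutive cytosolic Hsp70, had the highest level of all members in every library, followed by the Hsp90 genes. The lowest of those compared was Dnajb2 in every library.

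**Figure D1:**
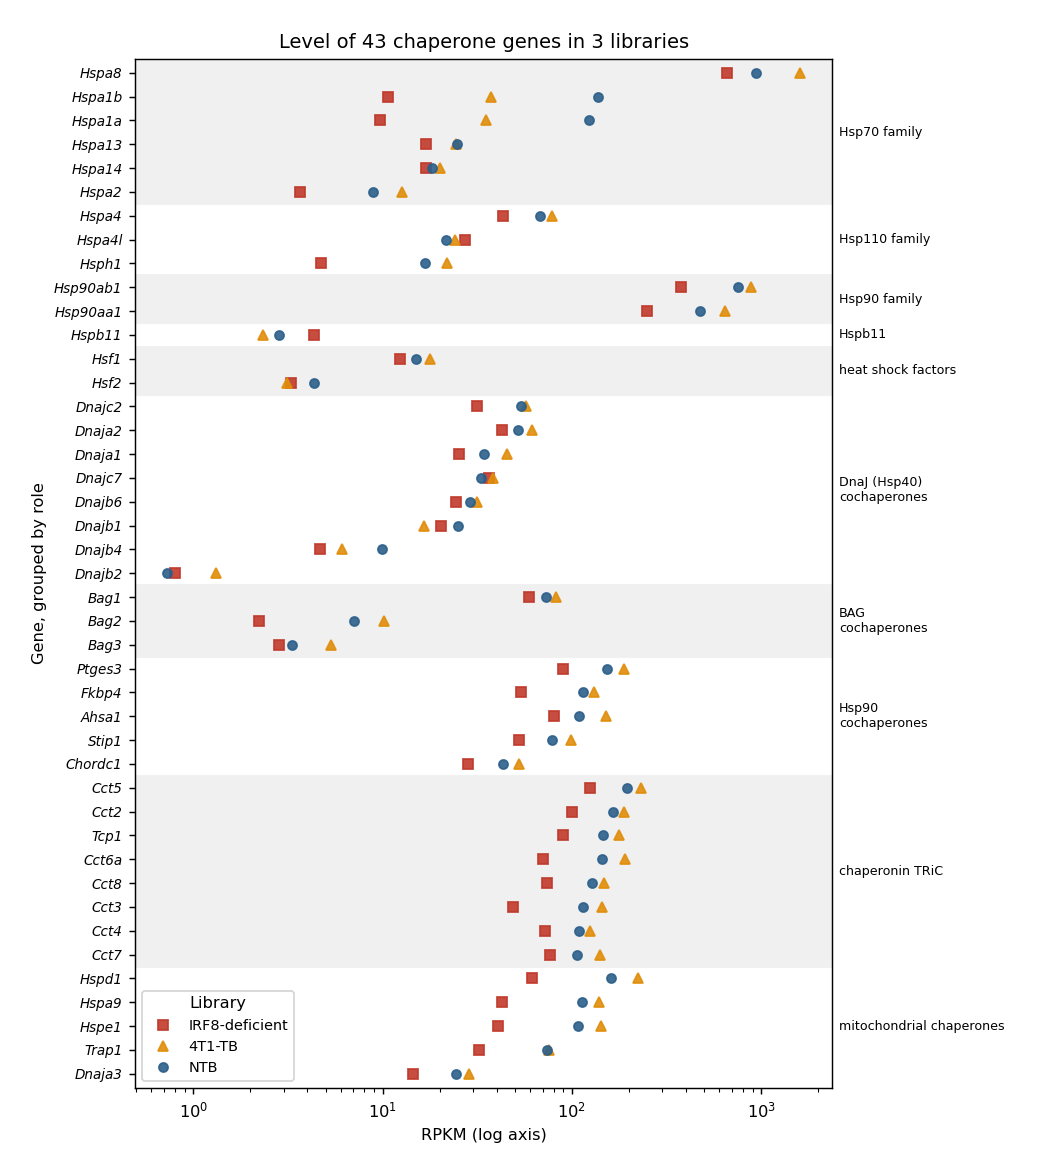
RPKM (log axis) of the 43 compared chaperone genes, 1 row per gene grouped by role, with a square for the IRF8-deficient library, a triangle for 4T1-TB and a circle for NTB. In most rows the square lies left of the others and the triangle lies right, while for Hspa1a and Hspa1b the circle lies far to the right.

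In the IRF8-deficient library set against NTB, 12 of 43 members (27.9%) were called lower and 0 were called higher. Among all 10658 genes 5.73% were called lower and 8.78% higher. The difference lay below 0 in 39 members (90.7%), against 51.5% of all genes, and the members' median was -0.65, against -0.02 over all genes. The 4 members above 0 (9.30%, against 48.4% of all genes) were Hspb11, Hspa4l, Dnajc7 and Dnajb2, of which Hspa4l, Dnajc7 and Dnajb2 fell below 0 when libraries were scaled by summed reads. Under that scaling 29 members and 18.7% of all genes were called lower, and the median of all genes moved by -0.49. Relative to the median of all genes, the members' median was -0.68 with that scaling and -0.62 with the deposited values. All genes called higher and lower numbered 936 and 611 with the deposited values, and 463 and 2003 with that scaling. Without the 20 highest genes in the library sizes they numbered 721 and 920. Of the 1769 genes that reached an RPKM of 50 in some library 3.9% were called lower, and of the 26 members among them 9 were, with this minimum chosen after seeing the data.

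In 4T1-TB set against NTB, 2 of 43 members were called lower (4.65%) and 0 were called higher. Among all genes 1.35% were called lower and 1.67% higher. The 2 were Hspa1a and Hspa1b, which share much of their sequence. The difference lay above 0 in 36 members (83.7%), against 51% of all genes, and 16.3% lay below 0, against 49% of all genes, with a median of 0.23 over members and 0.01 over all genes. Of these 36, Trap1, Hspa14, Dnajb6 and Dnajc2 lay below 0 when libraries were scaled by summed reads. The 7 below 0 were Hspa1a, Hspa1b, Hspa13, Hspb11, Hsf2, Dnajb1 and Dnajb4. All genes called higher and lower numbered 178 and 144 with the deposited values, and 156 and 211 when scaled by summed reads. Among genes that reached an RPKM of 50 in some library, the median was 0.26 over members and 0.16 over all genes. That minimum was chosen after seeing the data.

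In the IRF8-deficient library set directly against 4T1-TB, 16 of 43 members (37.2%) were called lower and 0 were called higher. Among all genes 7.07% were called lower and 8.83% higher. The median was -0.89 over members and -0.00 over all genes, and 39 members lay below 0, against 50% of all genes. Above 0 lay Hspb11, Dnajb1, Hspa4l and Hsf2, of which Dnajb1, Hspa4l and Hsf2 lay below 0 when scaled by summed reads. That scaling gave 30 members called lower and 14.8% of all genes. All genes called higher and lower numbered 941 and 754 with the deposited values, 503 and 1583 when scaled by summed reads, and 758 and 917 without the 20 highest genes. These 3 comparisons share libraries, so they are not independent of each other.

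**Figure D2:**
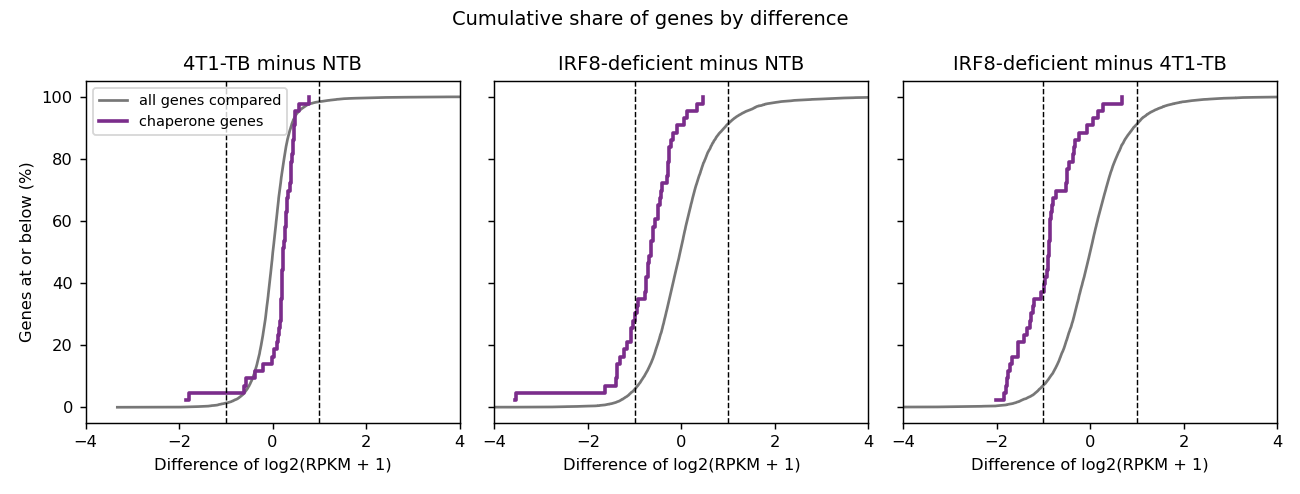
Cumulative share of genes (percent, vertical axis) by difference of log2(RPKM + 1) for the 43 chaperone genes (purple) and all 10658 genes compared (grey), 1 panel per comparison, with dashed lines at the 2-fold call. The purple curve lies left of the grey one in both IRF8-deficient panels, and in 4T1-TB minus NTB it lies right of it except for a tail of low genes.

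Hspa1a and Hspa1b, which encode the stress-inducible Hsp70, showed the largest differences of any member from NTB. Hspa1a had 9.68 RPKM in the IRF8-deficient library, 35.0 in 4T1-TB and 123 in NTB. Hspa1b had 10.7 RPKM in the IRF8-deficient library, 37.4 in 4T1-TB and 137 in NTB. For both genes NTB was the highest library and the IRF8-deficient library the lowest. Hspa1a was 12.7-fold lower in the IRF8-deficient library than in NTB (interval 11.8 to 13.7) and 3.51-fold lower in 4T1-TB than in NTB (3.36 to 3.68). Hspa1b was 12.8-fold lower (11.9 to 13.8) in the IRF8-deficient library and 3.66-fold lower (3.5 to 3.82) in 4T1-TB. Between the other pair of libraries, Hspa1a was 3.62-fold lower (3.32 to 3.94) in the IRF8-deficient library than in 4T1-TB. These values rest on 707, 2175 and 15407 reads of Hspa1a and on 784, 2335 and 17224 reads of Hspa1b. By level Hspa1a ranked 6144th of all symbols in the IRF8-deficient library, 2072nd in 4T1-TB and 421st in NTB. Hspa1a and Hspa1b were the 2 members called lower in 4T1-TB than in NTB under each scaling tried, and both also stayed called lower in the IRF8-deficient library.

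Hspa1a (mm10 chr17:34969190-34972156) and Hspa1b (chr17:34956436-34959238) lie 9951 bases apart on the minus strand, in the class III region of the H-2 complex. Its haplotype differs between the IRF8-deficient mice and the F1 mice, while 4T1-TB and NTB are of the same cross. The part of haplotype in these values was not tested. Their GENCODE M21 transcripts were 93.6% identical over 2735 aligned bases, and 58.8% of the 50-base windows of Hspa1a also occur in Hspa1b. The sources used here do not say how reads that match both were counted, so the split between them is uncertain. Their ratio was 0.906 in the IRF8-deficient library, 0.935 in 4T1-TB and 0.898 in NTB. Their sum, which is less open to that split, was 20.4 RPKM in the IRF8-deficient library, 72.4 in 4T1-TB and 260 in NTB. Counted as 1 member, the pair left 1 member called lower in 4T1-TB than in NTB.

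Hspa8, the constitutive Hsp70 (mm10 chr9:40800984-40810087), did not share that order. It had 662 RPKM in the IRF8-deficient library, 1610 in 4T1-TB and 940 in NTB, so 4T1-TB was highest and NTB lay between the others. Its level in 4T1-TB was 1.71 times NTB (interval 1.7 to 1.73), a difference of 0.78 that did not reach the call. It was called lower in the IRF8-deficient library than in 4T1-TB, 2.43-fold (2.4 to 2.46), and its difference from NTB was -0.50. The inducible pair made up a different proportion beside it: Hspa1a and Hspa1b together were 0.0307 times Hspa8 in the IRF8-deficient library, 0.045 times in 4T1-TB and 0.277 times in NTB. Because this ratio is taken within a library, scaling does not change it.

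The remaining Hsp70 genes were low. Hspa2, best known for its role in male germ cells, had 3.66 RPKM in the IRF8-deficient library, 12.6 in 4T1-TB and 8.84 in NTB. It was called lower in the IRF8-deficient library, 2.42-fold (2.11 to 2.78) against NTB, though not with a pseudocount of 5 (-0.68). Hspa13, a microsomal Hsp70 relative, had 17.0 RPKM in the IRF8-deficient library, 24.5 in 4T1-TB and 24.6 in NTB. Hspa14, which works at the ribosome, had 17.0 RPKM in the IRF8-deficient library, 20.1 in 4T1-TB and 18.1 in NTB, the closest of the family across libraries.

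**Figure D3:**
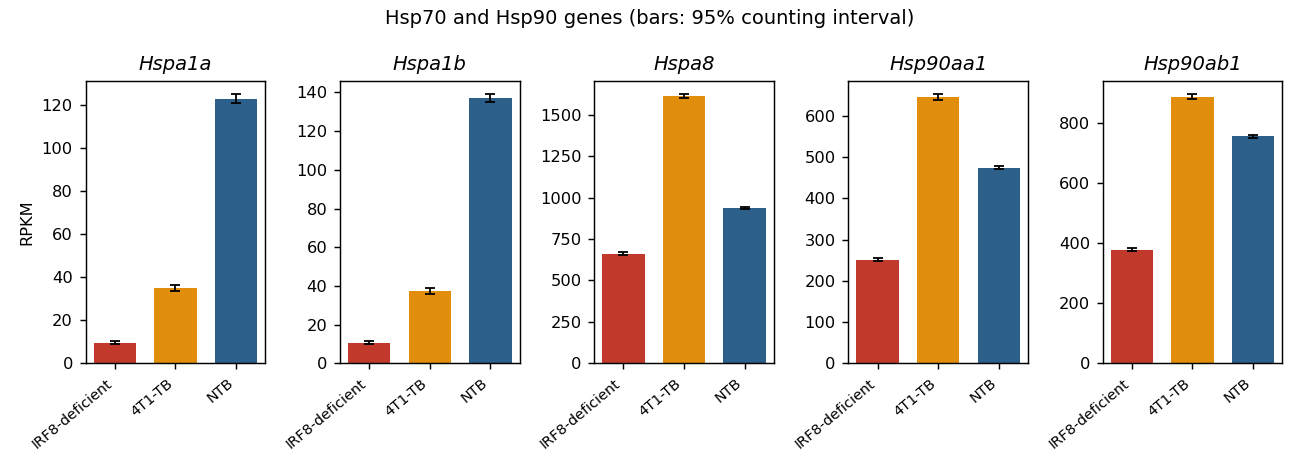
RPKM (vertical axis, from 0, scaled per panel) of Hspa1a, Hspa1b, Hspa8, Hsp90aa1 and Hsp90ab1 in the IRF8-deficient, 4T1-TB and NTB libraries. Error bars are 95% counting intervals of single libraries. NTB is the highest bar for Hspa1a and Hspa1b (123 and 137) and 4T1-TB is the highest for the other genes.

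The Hsp110 genes encode large Hsp70 relatives that act as nucleotide exchange factors, and they did not move alike. Hsph1, the inducible Hsp110 whose promoter is shown above, had 4.71 RPKM in the IRF8-deficient library, 22.0 in 4T1-TB and 16.7 in NTB. It was 3.53-fold lower in the IRF8-deficient library than in NTB (3.19 to 3.92) and 4.67-fold lower than in 4T1-TB (4.2 to 5.2). That last difference, -2.01, was the largest of any member between these libraries. Hspa4, the constitutive member, had 43.1 RPKM in the IRF8-deficient library, 78.6 in 4T1-TB and 68.0 in NTB. Its differences of -0.64 (IRF8-deficient minus NTB) and 0.21 (4T1-TB minus NTB) stayed within 2-fold with the deposited values. When scaled by summed reads, Hspa4 was called lower in the IRF8-deficient library against NTB (-1.18) and against 4T1-TB (-1.23). Hspa4l, by contrast, had 27.3 RPKM in the IRF8-deficient library, 24.1 in 4T1-TB and 21.5 in NTB. With that scaling Hspa4l too lay below 0 in the IRF8-deficient library, at -0.20 against NTB and -0.20 against 4T1-TB.

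The Hsp90 genes were second in level to Hspa8. Hsp90ab1, the constitutive isoform, had 378 RPKM in the IRF8-deficient library, 886 in 4T1-TB and 755 in NTB. Hsp90aa1, the isoform more open to stress induction, had 250.8 RPKM in the IRF8-deficient library, 646 in 4T1-TB and 475 in NTB. Both had their lowest value in the IRF8-deficient library and their highest in 4T1-TB. Against NTB they lay just outside the call with the deposited values, at -0.996 for Hsp90ab1 and -0.92 for Hsp90aa1. They passed it when scaled by summed reads, at -1.54 and -1.46. Against 4T1-TB both were called lower, at -1.23 and -1.36. The ratio of Hsp90aa1 to Hsp90ab1 was 0.664 in the IRF8-deficient library, 0.729 in 4T1-TB and 0.629 in NTB. The ratio of Hspa8 to the summed Hsp90 genes was 1.05 in the IRF8-deficient library, 1.05 in 4T1-TB and 0.764 in NTB.

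Hsf1, the main transcription factor of the heat shock response, had 12.3 RPKM in the IRF8-deficient library, 17.8 in 4T1-TB and 15.05 in NTB. Hsf2, a related factor, had 3.29 RPKM in the IRF8-deficient library, 3.14 in 4T1-TB and 4.33 in NTB. Neither factor passed the call in any comparison. Hspb1, the small heat shock protein Hsp27, had 0 reads in the IRF8-deficient library, 1 in 4T1-TB and 1 in NTB. It was not compared, and a count of 0 allows up to 3 reads, an RPKM of 0.127, in the IRF8-deficient library. Hspb11, the intraflagellar transport gene, had 4.32 RPKM in the IRF8-deficient library, 2.34 in 4T1-TB and 2.84 in NTB, and its difference of 0.47 was the highest of any member in the IRF8-deficient library against NTB, on 63 and 71 reads.

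None of the 8 DnaJ cochaperones, which deliver clients to Hsp70 and trigger its ATP use, passed the call in any of the 3 comparisons with the deposited scaling and a pseudocount of 1. Against NTB in the IRF8-deficient library, Dnajb4 passed it with a pseudocount of 0.1 (-1.08) and without the 20 highest genes (-1.11), and Dnajb4 (-1.42) and Dnajc2 (-1.29) passed it when scaled by summed reads. Dnaja1 (-1.19) and Dnajc2 (-1.23) passed it against 4T1-TB with that scaling. Dnajb1, the main inducible cytosolic partner of Hspa1a, had 20.3 RPKM in the IRF8-deficient library, 16.5 in 4T1-TB and 24.9 in NTB. Dnajb4, also of the B class, had 4.64 RPKM in the IRF8-deficient library, 6.12 in 4T1-TB and 9.91 in NTB. NTB was thus the highest library for both, at differences of -0.28 (IRF8-deficient) and -0.56 (4T1-TB) for Dnajb1 and of -0.95 and -0.62 for Dnajb4. For Dnajb1 4T1-TB was the lowest library with the deposited values, and the IRF8-deficient library was the lowest when scaled by summed reads (-0.09 against 4T1-TB).

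The other DnaJ genes had their highest level in 4T1-TB with the deposited values, and Dnajb6 and Dnajc2 had theirs in NTB when scaled by summed reads. Dnaja1 had 25.5 RPKM in the IRF8-deficient library, 45.5 in 4T1-TB and 34.5 in NTB, and Dnaja2 had 42.5, 61.8 and 51.6 RPKM in the same order of libraries. Dnajc2, which docks Hsp70 at the ribosome, had 31.4 RPKM in the IRF8-deficient library, 57.3 in 4T1-TB and 53.8 in NTB. Dnajb6, a suppressor of protein aggregation, had 24.5, 31.4 and 28.8 RPKM in that order, and Dnajc7, which binds Hsp70 and Hsp90, had 36.4, 38.1 and 33.2 RPKM. Dnajb2, known from neurons, was the lowest at 0.801 RPKM in the IRF8-deficient library, 1.32 in 4T1-TB and 0.725 in NTB.

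Among the BAG genes, which promote nucleotide release from Hsp70, Bag2 was the 1 called with the deposited values. When scaled by summed reads, Bag3 was also called lower in the IRF8-deficient library than in 4T1-TB (-1.02). Bag2, which inhibits the ubiquitin ligase CHIP, had 2.24 RPKM in the IRF8-deficient library, 10.1 in 4T1-TB and 7.05 in NTB. It was 3.15-fold lower in the IRF8-deficient library than in NTB (2.56 to 3.91) and 4.54-fold lower than in 4T1-TB (3.66 to 5.67), on 106, 409 and 573 reads, and the call against NTB was lost with a pseudocount of 5 (-0.74). Bag1 had 59.7 RPKM in the IRF8-deficient library, 82.6 in 4T1-TB and 73.3 in NTB. Bag3, a stress-inducible gene that links Hsp70 to autophagy, had 2.84 RPKM in the IRF8-deficient library, 5.37 in 4T1-TB and 3.32 in NTB, so NTB was not its highest library.

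The 5 Hsp90 cochaperones all had their lowest level in the IRF8-deficient library and their highest in 4T1-TB, under every scaling. Fkbp4, a peptidyl-prolyl isomerase of steroid receptor complexes, had 54.1 RPKM in the IRF8-deficient library, 131 in 4T1-TB and 115 in NTB. It was the 1 member of this group called lower against NTB with the deposited values, 2.13-fold (2.04 to 2.21). Ptges3, the p23 protein that holds Hsp90 in its closed state, had 90.0 RPKM in the IRF8-deficient library, 189 in 4T1-TB and 153 in NTB, and was called lower against 4T1-TB at -1.06. Stip1, which bridges Hsp70 and Hsp90, had 52.8, 98.8 and 78.4 RPKM in the same order of libraries. Ahsa1, the activator of the Hsp90 ATPase, had 80.7, 151 and 109 RPKM, and Chordc1 had 28.3, 52.4 and 43.5 RPKM. Their differences in the IRF8-deficient library against NTB were -0.56, -0.43 and -0.60. When scaled by summed reads, Ptges3 (-1.30), Chordc1 (-1.13) and Stip1 (-1.10) were also called lower against NTB, with 18.7% of all genes.

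**Figure D4:**
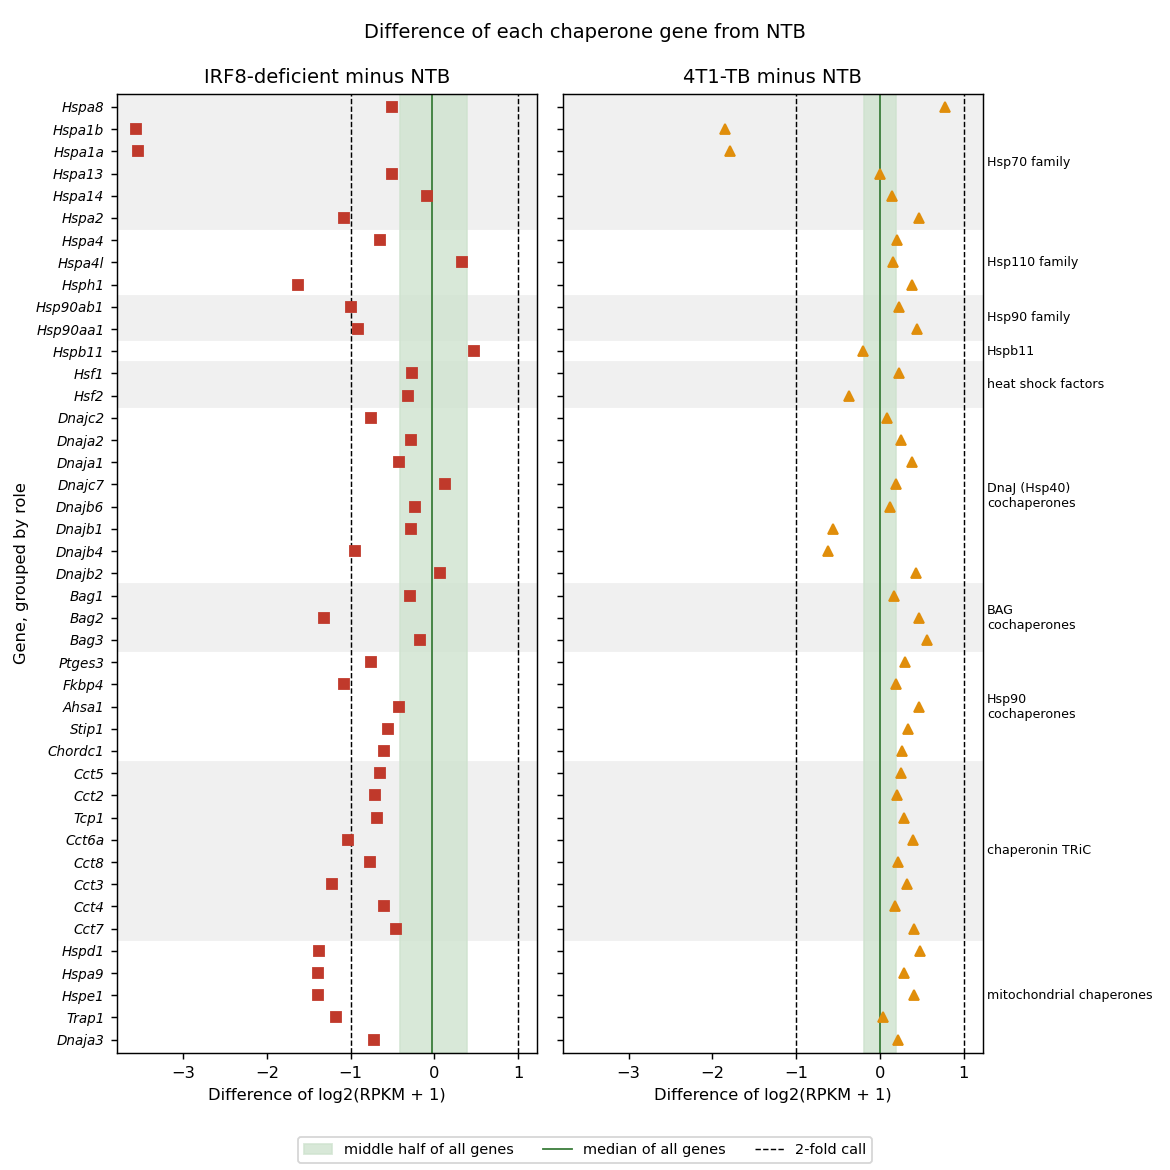
Difference of log2(RPKM + 1) from NTB for each of 43 chaperone genes, IRF8-deficient on the left and 4T1-TB on the right, in rows grouped by role. The green line and band give the median and the quartiles of all 10658 genes, and dashed lines mark the 2-fold call, which 12 members pass on the left and Hspa1a and Hspa1b pass on the right.

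All 8 subunits of TRiC were lowest in the IRF8-deficient library and highest in 4T1-TB, under every scaling. The median over subunits was 75.5 RPKM in the IRF8-deficient library, 163 in 4T1-TB and 136 in NTB. Cct3 had 48.9 RPKM in the IRF8-deficient library, 144 in 4T1-TB and 115 in NTB, a 2.35-fold lower level than NTB (2.25 to 2.46). Cct6a had 70.3 RPKM in the IRF8-deficient library, 190 in 4T1-TB and 145 in NTB, 2.06-fold lower than NTB (2.01 to 2.11). Those were the 2 subunits called lower in the IRF8-deficient library, and the other 6 lay between -0.46 for Cct7 and -0.77 for Cct8. In 4T1-TB against NTB the 8 subunits lay between 0.19 for Cct4 and 0.41 for Cct7, with 0 called.

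Although the assembled ring holds its subunits in equal number, their transcripts did not stand equal in any library. Cct5 was the highest subunit, with 124 RPKM in the IRF8-deficient library, 233 in 4T1-TB and 195 in NTB. The highest subunit was 2.54 times the lowest in the IRF8-deficient library, 1.87 times in 4T1-TB and 1.84 times in NTB. In the IRF8-deficient library the lowest subunit was Cct3, which was not the lowest in 4T1-TB or NTB, where Cct4 and Cct7 held that place. Tcp1 had 90.0 RPKM in the IRF8-deficient library, 177 in 4T1-TB and 145 in NTB, and Cct2 had 100.4, 189 and 164 RPKM in that order.

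With the deposited values the mitochondrial chaperones were the role with the largest share of calls in the IRF8-deficient library against NTB. There 4 of 5 were called lower, against 5.73% of all genes, and in 4T1-TB against NTB 0 were called. Between the IRF8-deficient library and 4T1-TB 4 of 5 were called lower, as were both Hsp90 genes, with 7.07% of all genes. When scaled by summed reads, every gene of this role, of TRiC and of the Hsp90 family was called lower against NTB in the IRF8-deficient library. So were 18.7% of all genes. Hspd1, the mitochondrial chaperonin Hsp60, had 61.2 RPKM in the IRF8-deficient library, 223 in 4T1-TB and 160.1 in NTB. Hspe1, its lid Hsp10, had 40.6 RPKM in the IRF8-deficient library, 143 in 4T1-TB and 108 in NTB. Hspa9, the mitochondrial Hsp70 that pulls imported proteins into the matrix, had 42.8 RPKM in the IRF8-deficient library, 138 in 4T1-TB and 113 in NTB. Against NTB these 3 genes stood at nearly one size, 2.62-fold lower for Hspd1 (2.53 to 2.71), 2.66-fold for Hspe1 (2.46 to 2.87) and 2.65-fold for Hspa9 (2.55 to 2.75), with intervals that overlap. Against 4T1-TB they were 3.64-fold, 3.52-fold and 3.23-fold lower in the same order of genes. Trap1, the mitochondrial Hsp90, had 32.4 RPKM in the IRF8-deficient library, 75.7 in 4T1-TB and 74.1 in NTB and was called lower, 2.29-fold (2.18 to 2.4) against NTB. Dnaja3, the mitochondrial DnaJ, had 14.5 RPKM in the IRF8-deficient library, 28.6 in 4T1-TB and 24.6 in NTB. Its difference of -0.72 from NTB was not called with the deposited values.

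Hspd1 (mm10 chr1:55077835-55088243, minus strand) and Hspe1 (chr1:55088132-55091307, plus strand) overlap by 112 bases at their starts. The Hspd1 to Hspe1 ratio was 1.51 in the IRF8-deficient library, 1.56 in 4T1-TB and 1.48 in NTB. GENCODE M21 lists 5 pseudogenes by the symbol of Hspd1 and 6 by that of Hspe1, so their counts could be split with copies. It lists 1 each by the symbols of Hspa9, Cct3, Tcp1, Dnaja1 and Ptges3, to which the same applies. Copies under other names were not searched for. The sources used here do not say whether counting used strand.

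**Figure D5:**
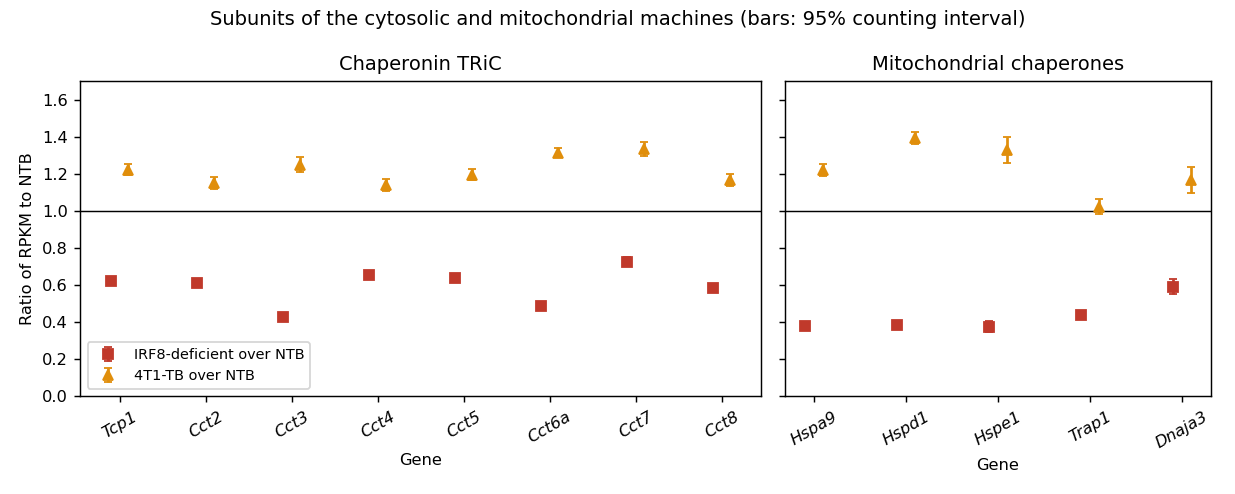
Ratio of RPKM to NTB (vertical axis, from 0) for the 8 TRiC subunits and the 5 mitochondrial chaperones, with squares for the IRF8-deficient library, triangles for 4T1-TB and bars for the 95% counting interval. All squares lie below 1, and Trap1 at 1.02 is the triangle closest to 1.

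Around the 2-fold line in the IRF8-deficient library against NTB, the members just inside it were Hspa2 at -1.08, Fkbp4 at -1.07 and Cct6a at -1.03. Just outside were Hsp90ab1 at -0.996, Dnajb4 at -0.95 and Hsp90aa1 at -0.92. Against 4T1-TB the members nearest the line were Ptges3 at -1.06 inside and Cct8 at -0.99 and Tcp1 at -0.97 outside. A call at a difference of 0.5 would take 28 members and 20.7% of all genes as lower in the IRF8-deficient library than in NTB, and a call at 2 would leave Hspa1a and Hspa1b and 0.385% of all genes. Without the 20 highest genes in the library sizes, Hsp90ab1 (-1.18), Dnajb4 (-1.11) and Hsp90aa1 (-1.10) were also called lower against NTB. Against 4T1-TB that alternative added Stip1, Ahsa1, Tcp1, Cct2, Cct5, Cct8 and Dnaja3. It gave 15 members lower against NTB and 23 against 4T1-TB, with 8.62% and 8.59% of all genes. With a pseudocount of 5, Hspa2 (-0.68), Bag2 (-0.74) and Cct6a (-0.99) were not called against NTB.

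Other genes of the folding system did not all share the members' position. Of 32 other Hsp70 and Hsp40 genes compared, 2 were called higher and 3 lower in the IRF8-deficient library than in NTB, with a median of -0.17, and 0 higher and 1 lower in 4T1-TB, with a median of 0.11. Hspa5, the Hsp70 of the endoplasmic reticulum, had 296 RPKM in the IRF8-deficient library, 873 in 4T1-TB and 523 in NTB. Hyou1, the Hsp110 relative there, had 58.9 RPKM in the IRF8-deficient library, 186 in 4T1-TB and 125 in NTB and was called lower against NTB. Hspa12a, a distant Hsp70 relative, had 5.13 RPKM in the IRF8-deficient library, 0.00785 in 4T1-TB and 0.0389 in NTB. The others called against NTB, named after their values were seen, were Dnajb14 (higher), Dnajc25 and Hspa1l (both lower). The 1 gene called lower in 4T1-TB was Hspa1l, the Hsp70 gene next to Hspa1a, with 0.444 RPKM in the IRF8-deficient library, 0.727 in 4T1-TB and 2.86 in NTB.

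Of 10 other Hsp70 cochaperones, 0 were called higher and 1 lower in the IRF8-deficient library than in NTB (median -0.28). That 1 was Sil1, an exchange factor for Hspa5, with 7.6 RPKM in the IRF8-deficient library, 16.8 in 4T1-TB and 17.6 in NTB. Of 18 other Hsp90 family and cochaperone genes, 1 was called lower (median -0.09). That 1 was Nudcd2, with 15.3 RPKM in the IRF8-deficient library, 38.6 in 4T1-TB and 33.6 in NTB. Hsp90b1, the Hsp90 of the endoplasmic reticulum, had 296 RPKM in the IRF8-deficient library, 645 in 4T1-TB and 485 in NTB. In 4T1-TB against NTB 0 genes of either list were called.

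Prefoldin, which hands actin and tubulin to TRiC, and the tubulin folding cofactors numbered 16 compared, of which 0 were called in the IRF8-deficient library against NTB, with a median of 0.15. Of 13 other mitochondrial chaperones and proteases 0 were called there, with a median of -0.20. Lonp1, the matrix protease, had 23.4 RPKM in the IRF8-deficient library, 54.8 in 4T1-TB and 43.2 in NTB, a difference of -0.86 from NTB. Of 9 small heat shock proteins and other HSF1-related genes compared 1 was called higher and 0 lower, with a median of 0.35. That 1 was Hmox1, heme oxygenase, named after its values were seen, with 4.79 RPKM in the IRF8-deficient library, 3.6 in 4T1-TB and 1.2 in NTB. Cacybp had 32.9 RPKM in the IRF8-deficient library, 72.8 in 4T1-TB and 61.1 in NTB.

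Immediate early genes, which respond to stimulation within minutes, formed a further list. Of 20 compared, 1 was called higher and 3 lower in 4T1-TB than in NTB, and 7 were called higher and 5 lower in the IRF8-deficient library than in NTB. Named after their values were seen, the 3 were Fos, Fosb and Jun, the 1 was Zfp36l1, and the 5 were Fos, Fosb, Jun, Egr1 and Dusp2. Fosb had 1.24 RPKM in the IRF8-deficient library, 0.239 in 4T1-TB and 11.4 in NTB, with NTB the highest as for Hspa1a. Klf6 had 53.2 RPKM in the IRF8-deficient library, 12.5 in 4T1-TB and 14.6 in NTB, and Nfkbia had 75.5, 23.6 and 19.1 RPKM in that order, with the IRF8-deficient library the highest. The list thus held genes on both sides, and its part in the Hspa1a and Hspa1b values was not tested.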

How the data were processed

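The deposited values were RPKM per gene symbol in 3 libraries, made by the authors. The submitters' processing notes name edgeR 3.12.1, HTSeq 0.6.1, TopHat2 2.0.13, Picard 1.97, cutadapt 1.2.1, CASAVA 1.8.2 and the build mm10, without roles. RNA was extracted with TRIzol, per the labels. Strandedness, read length and gene annotation are not stated.

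RPKM was used as deposited. Whole reads were recovered for all 15158 genes above 0 from the ratios of a gene's values between libraries. Implied lengths were whole within 0.03 bases for 99.5%, and 89.8% of 14553 genes with a GENCODE M21 length lay within 0.8 to 1.25 of it. A common factor of the reads was chosen from that length where needed, so the reads of Cct6a, Chordc1, Hspa4l and Hspa14 are less sure, which affects interval widths and no ratio. Levels carry exact Poisson intervals and ratios Clopper-Pearson intervals. The recovery and the calls were tested on simulated data. Depth and scaling are given above.

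Every member is named, the background lists by up to 3 genes with the largest difference from an RPKM of 5 up, and Mpo as a progenitor marker. A gene of a background list is not reported here. Members, lists and tests were chosen with earlier results of these data known. Sequences and starts came from RefSeq on GRCm38.p6, loci from GENCODE M21 on mm10. Alternatives were scaling by summed reads, by median ratios or without the 20 highest genes, pseudocounts of 0.1 and 5, filters at an RPKM of 5 and none, calls at 0.5 and 2, Hspa1a with Hspa1b as 1 member, and a filter at an RPKM of 50 added after seeing the data. Calculations used Python 3.11.15, numpy 2.4.6, pandas 2.3.3, scipy 1.17.1, Biopython 1.88 and matplotlib 3.10.9.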

Additional observations from a re-analysis of the deposited data

How the results depend on the processing

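No paired analysis was possible because each group held 1 library, and for the same reason no library could be left out within a group. No median or count of the members, and no called member, changed sign under any alternative run. Medians over members moved to 0.16 (4T1-TB against NTB), -0.83 (IRF8-deficient against NTB) and -1.01 (IRF8-deficient against 4T1-TB) without the 20 highest genes. Those of all genes were then -0.06, -0.19 and -0.10. Scaled by summed reads, the members' medians were 0.081, -1.19 and -1.28 in that order, and those of all genes -0.14, -0.51 and -0.34. That scaling took the members called lower in the IRF8-deficient library to 29 against NTB and 30 against 4T1-TB, with 18.7% and 14.8% of all genes. Relative to the median of all genes, the members' medians were 0.22, -0.68 and -0.94 with that scaling. With the deposited values they were 0.22, -0.62 and -0.89. With a call at 2 the members lower were 0, 2 and 1, against 0.0469%, 0.385% and 0.469% of all genes. With a call at 0.5 they were 4, 28 and 32, against 6.91%, 20.7% and 21.8% of all genes. That call also took 2 of 43 members as higher in 4T1-TB against NTB, beside 632 of all 10658 genes. In IRF8-deficient against 4T1-TB it took 1 of 43 members as higher, beside 2323 of all 10658 genes. With Hspa1a and Hspa1b as 1 member, 1 was called lower in 4T1-TB than in NTB. At an RPKM of at least 50, a filter chosen after seeing the data, the medians for the IRF8-deficient library were -0.76 against NTB and -1.02 against 4T1-TB. Over all genes at that level they were 0.11 and -0.05. For 4T1-TB against NTB the medians at that level were 0.26 over members and 0.16 over all genes. Of the single values of members under the alternatives, 67, 94 and 88 moved beyond their counting interval in the comparisons in the order above and 190, 163 and 169 did not. The latter include the alternative with Hspa1a and Hspa1b as 1 member, under which the values of the other members could not move. With 1 library per group the variation between animals is unknown, and depth limits Hspb1, Hspb11, Dnajb2 and Bag2.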
